A study of Homo sapiens with 6 samples.

Results

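The EGFR family consists of receptor tyrosine kinases that sit in the cell membrane and of the growth factors that bind them. The genes followed here were those whose symbol in the deposited table was one of 10 names: the 4 receptors EGFR, ERBB2, ERBB3 and ERBB4, and the 6 ligands AREG, EREG, HBEGF, TGFA, BTC and NRG1. All 10 were found among the 20811 genes of the table. They were compared between the lines HuCCT1/CD90+ and HuCCT1/CD90-, with 3 libraries of each. HuCCT1 cells derive from a human cancer of the bile ducts within the liver, an intrahepatic cholangiocarcinoma, and were kept in RPMI medium with fetal bovine serum. HuCCT1/CD90+ cells were transduced with a lentivirus carrying human THY1, the gene of the surface glycoprotein CD90, and GFP under the CMV promoter. HuCCT1/CD90- cells received a blank lentivirus with GFP and a puromycin resistance gene under the same promoter, and the label of the THY1 vector names no resistance gene. Both lines therefore carried a lentivirus and GFP. The study's methods mention biological replicates but do not say whether the libraries of a line came from separate cultures. The p-values therefore measure the spread between these libraries, which may be technical.

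Ligands of this family are made as membrane-anchored precursors and are released by ADAM metalloproteases. AREG, EREG, HBEGF, TGFA and BTC bind EGFR, HBEGF, EREG and BTC also bind ERBB4, and NRG1 binds ERBB3 and ERBB4. ERBB2 has no known soluble ligand and acts as the preferred partner of the other receptors, whereas ERBB3 has little kinase activity of its own and docks PI3-kinase once it is paired. In biliary epithelium the family is known for driving growth and repair, and its receptors have been studied as drug targets in biliary tract cancer.

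THY1 was at 0, 0.107 and 0 RPM in the 3 HuCCT1/CD90- libraries and at 46.6, 51.8 and 73.8 RPM in the HuCCT1/CD90+ libraries, as their labels require. RPM is the number of reads of a gene scaled to the same total in each library, and each gene is read over 1 amplicon. HuCCT1/CD90- libraries held 9345680 to 10551516 reads and HuCCT1/CD90+ libraries 8587634 to 9327650. A count of 3 reads, used as the floor of detection, was worth 0.284 to 0.349 RPM and covers counting error only. Biliary epithelial markers were present in both lines, with KRT7 at 3433 and 3656 RPM and KRT19 at 3228 and 4146 RPM (means of HuCCT1/CD90- and HuCCT1/CD90+). The sum of their 7 genes lay between 8210 and 9314 RPM in HuCCT1/CD90- libraries and between 10974 and 11722 RPM in HuCCT1/CD90+ libraries. By the test described next, 5 of them were called higher in HuCCT1/CD90+, among them EPCAM (28.6 and 363 RPM). When a library was left out 3 to 5 were called, and 3 with the replicate number as a block. Over all genes 9.41% were called higher, or 14.4% of those whose mean reached 1 RPM, and 6.72% with the block.

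The main test was limma on log2(RPM + 1) over all 20811 genes, and a gene was called at a Benjamini-Hochberg adjusted p of at most 0.05. Of the 6 ligands, 6 were called higher in HuCCT1/CD90+ cells, and of the 4 receptors EGFR and ERBB3 were called higher, ERBB4 lower and ERBB2 neither. That made 8 members higher and 1 lower, where 9.41% of all genes were called higher and 9.52% lower. With the replicate number as a block, 5 members were higher and 1 lower, EGFR, EREG and NRG1 being lost (limma adjusted p = 0.0682, 0.0648 and 0.0788), where 6.72% of all genes were called higher and 6.4% lower. Among the 12062 genes whose mean reached 1 RPM, which include all 10 members, the shares without the block were 14.4% and 15.0%. BTC reached that mean only through its HuCCT1/CD90+ libraries. A limma fit of those 12062 genes alone called 5028 of them, with again 8 members higher and 1 lower. The median log2 fold change was 1.70 over the ligands, 0.71 over the receptors and 1.5002 over all members, beside 0 over all genes. In bulk RNA, more transcript per cell and more cells that make it cannot be told apart.

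**Figure D1:**
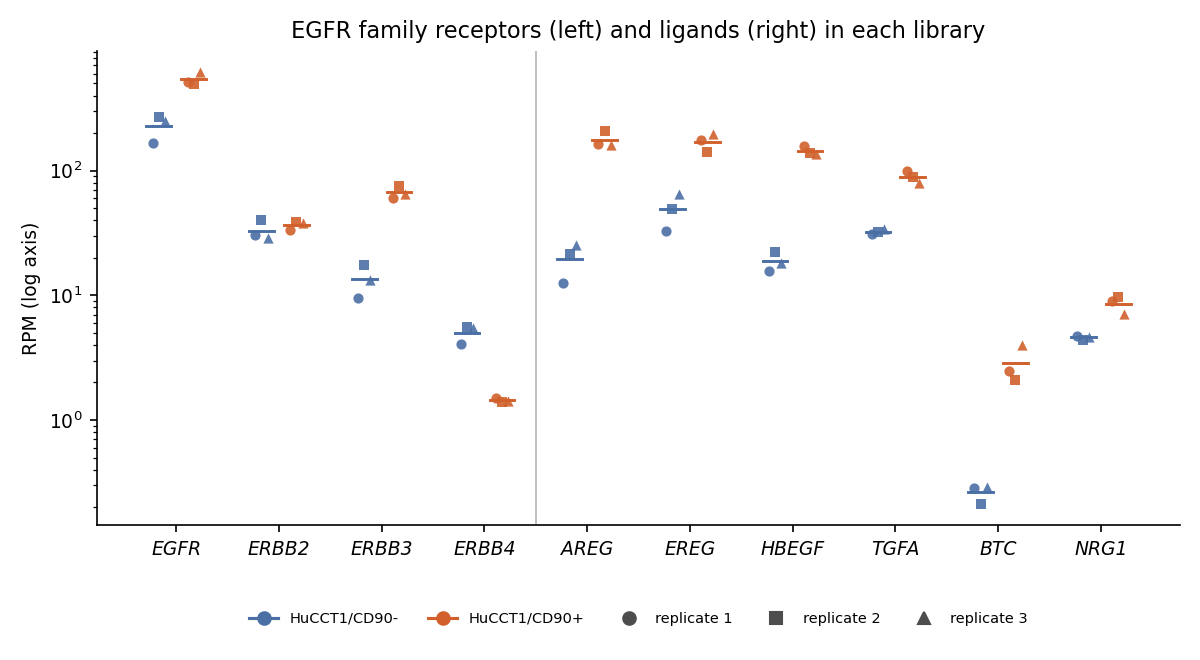
RPM (log axis) of the 4 receptors, left of the grey line, and the 6 ligands, right of it, in each of the 6 libraries, with horizontal bars at the means of HuCCT1/CD90- (blue) and HuCCT1/CD90+ (orange) and the marker shape giving the replicate number. Each ligand, EGFR and ERBB3 have all 3 HuCCT1/CD90+ libraries above all 3 HuCCT1/CD90- libraries, ERBB4 has them below and ERBB2 overlaps.

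AREG and HBEGF, the ligands with the largest log2 fold changes on the log2(RPM + 1) scale, and EREG, the neighbour of AREG on chromosome 4, are represented by their promoters, from 250 bases before to 50 bases after the start of the RefSeq gene (GRCh38.p14), because their start sites differ in the short motifs they hold. The AREG window is chr4:74444886-74445185 on the + strand, the EREG window chr4:74364895-74365194 on the + strand and the HBEGF window chr5:140346554-140346853 on the - strand, each written 5′ to 3′ on the strand of the gene. Capitals mark the motifs found: the cAMP response element TGACGTCA, the TATA box TATAAA, the E-box CACCTG or its reverse CAGGTG, and the TEAD motif GGAATG or its reverse CATTCC.
AREG: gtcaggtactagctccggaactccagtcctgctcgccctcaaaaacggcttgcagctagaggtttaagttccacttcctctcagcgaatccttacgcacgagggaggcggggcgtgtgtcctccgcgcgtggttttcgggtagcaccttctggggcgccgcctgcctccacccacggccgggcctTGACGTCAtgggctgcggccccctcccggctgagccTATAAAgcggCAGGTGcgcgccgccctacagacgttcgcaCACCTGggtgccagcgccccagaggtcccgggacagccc
EREG: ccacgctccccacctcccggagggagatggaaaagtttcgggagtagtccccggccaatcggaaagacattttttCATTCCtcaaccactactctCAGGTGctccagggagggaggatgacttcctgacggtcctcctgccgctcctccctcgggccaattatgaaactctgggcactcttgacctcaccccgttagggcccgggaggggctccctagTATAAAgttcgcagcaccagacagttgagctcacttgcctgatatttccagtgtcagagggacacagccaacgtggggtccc
HBEGF: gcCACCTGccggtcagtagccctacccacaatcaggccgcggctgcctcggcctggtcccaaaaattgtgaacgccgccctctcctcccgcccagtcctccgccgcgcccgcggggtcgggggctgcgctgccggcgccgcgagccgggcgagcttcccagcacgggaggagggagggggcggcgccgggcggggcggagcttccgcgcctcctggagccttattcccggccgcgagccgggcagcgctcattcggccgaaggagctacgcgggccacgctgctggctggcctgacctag

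In the AREG promoter the cAMP response element begins 65 bases before the start, the TATA box 29 bases before it and an E-box 19 bases before it, and another E-box lies 11 bases after it. EREG holds the TEAD motif 175 bases, an E-box 155 bases and a TATA box 32 bases before its start. HBEGF holds only an E-box, 248 bases before its start, out of the motifs searched. The same search was made in the windows of 8 members, of which 5 are ligands and 3 receptors. ERBB3 had no window in the table and NRG1 was not searched. The E-box CACCTG was found, on either strand, in the 5 of 5 ligands searched, NRG1 left out, and in 0 of the 3 receptors searched. It occurred in 20.6% of all 35116 promoter windows of 300 bases, a share of windows and not of genes. Whether these counts differ from that share was not tested. The cAMP response element was found in AREG alone of the members (1.85% of all windows), the TATA box also in EGFR (11.5%), the TEAD motif also in EGFR (14.0%) and the AP-1 motif TGACTCA in EGFR alone (4.95%). EGFR and TGFA had 2 windows each, so that they had more bases in which a motif could occur. These matches describe the letters of the windows and no binding was measured.

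On the log2(RPM + 1) scale the ligand with the largest log2 fold change was AREG, whereas on the means and in edgeR and DESeq2 on the reads it was BTC. AREG is the gene of amphiregulin, a ligand of EGFR with low affinity that many epithelial tumours secrete. Its amplicon gave 12.5, 21.3 and 25.1 RPM in HuCCT1/CD90- and 163, 206 and 160 RPM in HuCCT1/CD90+ (replicates 1, 2 and 3). The lowest HuCCT1/CD90+ library was far above the highest HuCCT1/CD90- library, and the lines did not overlap. The mean rose 8.97-fold, from 19.6 ± 6.47 to 176 ± 26.1 RPM (SD, n = 3), with a log2 fold change of 3.15 ± 0.29 (SE, 95% interval 2.36 to 3.93) and a limma adjusted p of 0.00501. AREG ranked 110 among all genes by its rise. The gene lies at chr4:74445134-74455009 (GRCh38), and RefSeq gives AREGB as another of its names, which older genome builds list as a second copy, so that reads could have been divided between the copies.

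HBEGF encodes heparin-binding EGF-like growth factor, which binds EGFR and ERBB4 and whose membrane form can act on adjacent cells. It was measured at 15.6, 22.3 and 18.2 RPM in the HuCCT1/CD90- libraries and at 158, 137 and 135 RPM in the HuCCT1/CD90+ libraries. The libraries of each line lay close together and the lines were far apart. The mean was 7.66-fold higher in HuCCT1/CD90+ (18.7 ± 3.34 and 143 ± 12.8 RPM, SD, n = 3), with a log2 fold change of 2.88 ± 0.15 (SE) and the lowest adjusted p of the members in limma, 0.00121. HBEGF lies at chr5:140332843-140346631 on the - strand and ranked 144 by its rise.

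TGFA, the gene of transforming growth factor alpha, a ligand of EGFR alone, stood at 30.9, 32.3 and 34.1 RPM in HuCCT1/CD90- and at 99.0, 88.3 and 79.2 RPM in HuCCT1/CD90+. Its 3 HuCCT1/CD90- libraries were within a narrow range, with a coefficient of variation of 5.02%. TGFA was 2.74-fold higher in HuCCT1/CD90+ (32.5 ± 1.63 and 88.8 ± 9.88 RPM), with a log2 fold change of 1.42 ± 0.095 (SE) and a limma adjusted p of 0.00207. The gene spans chr2:70447280-70554193 on the - strand.

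EREG encodes epiregulin, a ligand of EGFR and ERBB4. It was measured at 33.0, 49.5 and 64.4 RPM in HuCCT1/CD90- and at 176, 141 and 195 RPM in HuCCT1/CD90+, again without overlap. The mean was 3.48-fold higher (49.0 ± 15.7 and 170 ± 27.7 RPM), with a log2 fold change of 1.82 ± 0.29 (SE) and a limma adjusted p of 0.0205 (0.0648 with the block). In the fit over all genes the call depended on single libraries. Without HuCCT1/CD90- replicate 2 the limma adjusted p was 0.0684, and without HuCCT1/CD90+ replicates 1, 2 or 3 it was 0.0744, 0.054 and 0.079, while the log2 fold change stayed between 1.56 and 2.04. Over the genes whose mean reached 1 RPM the limma adjusted p was 7.4e-05, and no library was left out of that fit. EREG lies at chr4:74365143-74388751.

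BTC and NRG1 were the least abundant ligands by reads. BTC encodes betacellulin, a ligand of EGFR and ERBB4, and had 3, 2 and 3 reads in HuCCT1/CD90- (0.284, 0.214 and 0.291 RPM), all at or under the floor, and 23, 18 and 37 reads in HuCCT1/CD90+ (2.47, 2.10 and 4.02 RPM). Scaled by library totals, the 78 reads of HuCCT1/CD90+ against the 8 of HuCCT1/CD90- gave a ratio of 10.9 with a 95% counting interval of 5.25 to 26.03. On the log2(RPM + 1) scale, which understates the change of low genes, the log2 fold change was 1.58 ± 0.20 (SE) with a limma adjusted p of 0.011. BTC lies at chr4:74744759-74794686 on the - strand.

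NRG1 encodes neuregulin 1, the only member here that binds ERBB3 and ERBB4 but not EGFR. It gave 4.74, 4.39 and 4.66 RPM in HuCCT1/CD90- and 9.01, 9.67 and 7.05 RPM in HuCCT1/CD90+, from 41 to 84 reads. NRG1 had the smallest log2 fold change of the ligands, 0.77 ± 0.12 (SE), or 1.87-fold on the means (4.59 ± 0.184 and 8.57 ± 1.36 RPM), with a limma adjusted p of 0.0187 (0.0788 with the block). The lines did not overlap, but the adjusted p was over 0.05 without any 1 of the HuCCT1/CD90- libraries (0.0593, 0.069 and 0.0682 without replicates 1, 2 and 3) and without HuCCT1/CD90+ replicates 1 (0.0692) or 2 (0.0506). With no library left out, the limma adjusted p was 0.00255 over the genes whose mean reached 1 RPM. The gene spans several promoters and isoforms, and 1 amplicon reads only the transcripts that hold it.

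**Figure D2:**
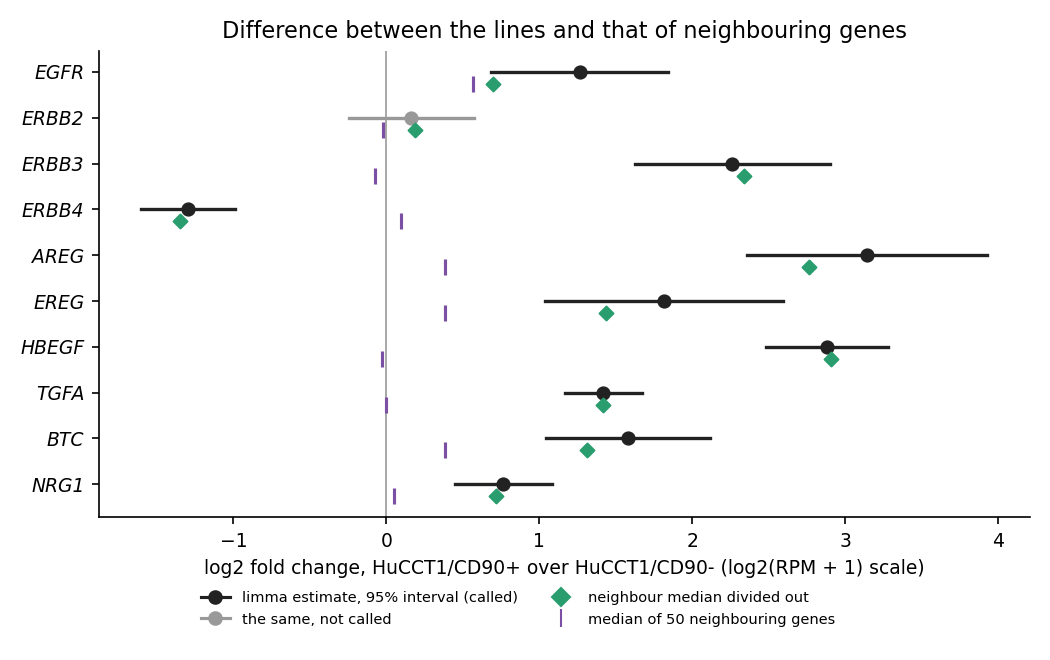
Log2 fold change (x axis, HuCCT1/CD90+ over HuCCT1/CD90- on the log2(RPM + 1) scale) of each member with its 95% limma interval (circles and lines, grey where not called), the median of 50 neighbouring genes (purple ticks) and the value after that median was divided out (green diamonds). AREG and HBEGF stand farthest to the right at 3.15 and 2.88, ERBB4 is at -1.30, and EGFR moves from 1.26 to 0.70 once its neighbours are divided out.

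Of the receptors, ERBB3 had the largest log2 fold change. ERBB3 binds NRG1 and passes signals on through the kinases it pairs with. Its values were 9.48, 17.4 and 13.4 RPM in HuCCT1/CD90- and 60.4, 74.6 and 65.3 RPM in HuCCT1/CD90+, and the lines were well separated. The mean was 4.97-fold higher in HuCCT1/CD90+ (13.4 ± 3.98 and 66.8 ± 7.25 RPM), the log2 fold change 2.26 ± 0.24 (SE, 95% interval 1.63 to 2.90) and the limma adjusted p 0.00687. ERBB3 lies at chr12:56076799-56103505.

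EGFR, which binds all of these ligands except NRG1, gave 168, 267 and 250 RPM in HuCCT1/CD90- and 512, 497 and 614 RPM in HuCCT1/CD90+, from 1770 to 5658 reads. All HuCCT1/CD90+ libraries were above all HuCCT1/CD90- libraries, and replicate 1 was the lowest of the latter. EGFR was 2.37-fold higher in HuCCT1/CD90+ (228 ± 53.0 and 541 ± 63.6 RPM), with a log2 fold change of 1.26 ± 0.22 (SE, 95% interval 0.69 to 1.84) and a limma adjusted p of 0.024 (0.0682 with the block). That p rose to 0.0665 without HuCCT1/CD90- replicate 3 and to 0.0761, 0.0716 and 0.086 without HuCCT1/CD90+ replicates 1, 2 and 3. Over the genes whose mean reached 1 RPM, with no library left out, the limma adjusted p was 0.00034. When the median of the neighbours of EGFR on chromosome 7 was divided out, its log2 fold change was 0.70 (limma adjusted p = 0.117). The gene lies at chr7:55019021-55211628, where the antisense gene EGFR-AS1 overlaps it, and whether counting used the strand is not given in the sources used here.

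ERBB2 is the partner receptor of the family and a drug target where it is amplified. It was measured at 30.4, 40.1 and 28.6 RPM in HuCCT1/CD90- and at 33.4, 39.0 and 38.1 RPM in HuCCT1/CD90+. The lines overlapped and the difference was within the spread of the libraries. The log2 fold change was 0.16 with a 95% interval of -0.24 to 0.57 (limma adjusted p = 0.572). ERBB2 lies at chr17:39687914-39730426.

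ERBB4, the other neuregulin receptor which unlike ERBB3 has an active kinase, was the single member called lower. Its amplicon had 43, 52 and 56 reads in HuCCT1/CD90- (4.08, 5.56 and 5.43 RPM) and 14, 12 and 13 reads in HuCCT1/CD90+ (1.501, 1.397 and 1.411 RPM). The lines did not overlap, and scaled by library totals, the summed reads were 3.48 times higher in HuCCT1/CD90- (95% counting interval 2.43 to 5.08). The log2 fold change on the log2(RPM + 1) scale was -1.30 ± 0.11 (SE), with a limma adjusted p of 0.00431, and without that offset, in DESeq2 on the reads, it was -1.79. ERBB4 spans chr2:211375717-212538841 on the - strand.

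The make-up of the receptors was read from ratios of RPM + 1 within each library. The log2 ratio of ERBB2 to EGFR was -2.43, -2.70 and -3.08 in HuCCT1/CD90- and -3.90, -3.64 and -3.98 in HuCCT1/CD90+. It differed by -1.10 (SDs 0.33 and 0.18), and the ratio was lower in every HuCCT1/CD90+ library than in any HuCCT1/CD90- library. The log2 ratio of ERBB3 to EGFR went the other way, from -4.01, -3.86 and -4.12 to -3.06, -2.72 and -3.21, a difference of 1.00 (SDs 0.13 and 0.25), which was 1.07 with an offset of 0.1 RPM and 0.73 with 5 RPM. Both rest on EGFR, and when the median change of the 50 nearest genes on its chromosome was divided out of each gene, the differences were -0.51 for ERBB2 to EGFR and 1.64 for ERBB3 to EGFR, an alternative chosen after seeing the data. Without that division both differences gave p = 0.1 in two-sided exact permutation tests, and 0.1 after adjustment over the 2 ratios. A p of 0.1 is the smallest value that 3 against 3 libraries allow. These tests took the libraries as unpaired, and no paired test of the ratios was run. The RPM of different amplicons are not comparable as levels, so only the change of a ratio can be read.

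Seen over all libraries, 8 members had every HuCCT1/CD90+ library above every HuCCT1/CD90- library and ERBB4 had every one below. Among the genes whose mean reached 1 RPM these patterns occurred in 25.7% and 26.9%. AREG, HBEGF, TGFA, BTC, ERBB3 and ERBB4 passed the test whichever library was left out of the fit over all genes. EGFR and EREG passed in 2 and NRG1 in 1 of the 6 such fits. The same 6 members also passed with the replicate number as a block.

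**Figure D3:**
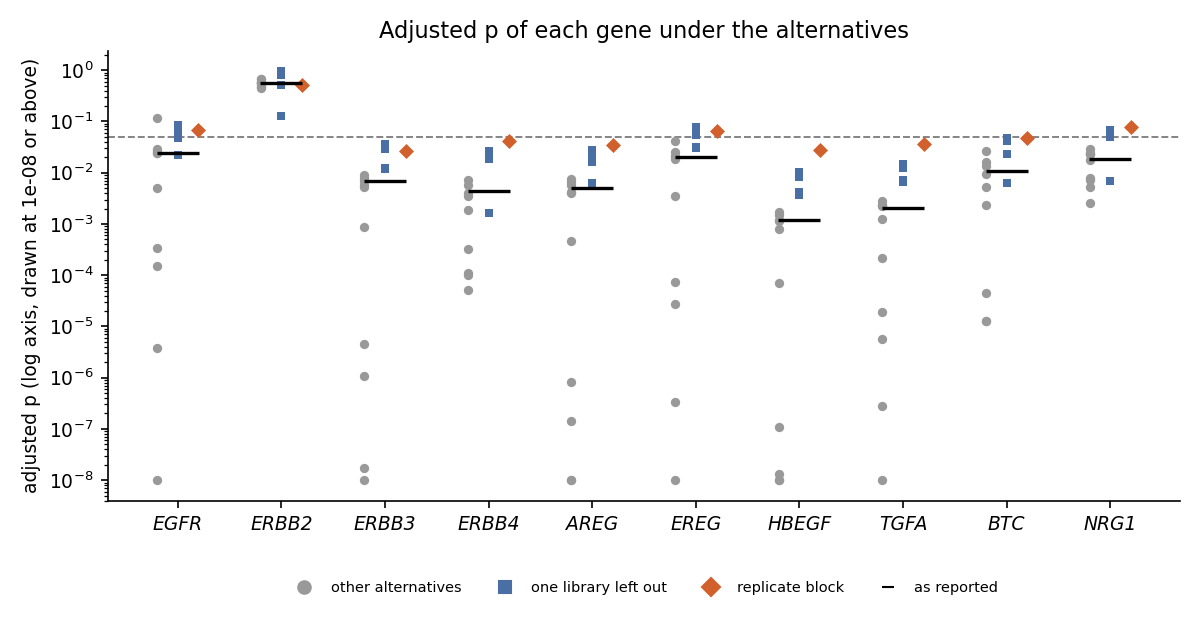
Adjusted p (log axis, values under 1e-08 drawn there) of each member as reported (black bars), with each library left out in turn (blue squares), with the replicate block (orange diamonds) and under the other alternatives (grey circles), with a dashed line at 0.05. AREG, HBEGF, TGFA, BTC, ERBB3 and ERBB4 stay below the line under each of these, EGFR, EREG and NRG1 cross it, and ERBB2 stays above it.

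Genes of some chromosomes moved together between the lines, and the members were therefore set beside their neighbours. On chromosome 7 the 401 genes whose mean reached 10 RPM had a median log2 fold change of 0.52, and 86.3% of them had higher values in HuCCT1/CD90+. The 50 such genes nearest to EGFR had a median of 0.57, with 84% higher. When this median was divided out, the log2 fold change of EGFR was 0.70 and its limma adjusted p 0.117, so that the call was lost. Around AREG, EREG and BTC on chromosome 4 the 50 nearest genes had a median of 0.38, with 74% higher, and the corrected log2 fold changes of AREG, EREG and BTC were 2.76, 1.43 and 1.31 (limma adjusted p = 0.00751, 0.042 and 0.0163). For the other 6 members the neighbours had medians between -0.07 and 0.09 and no call changed.

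AREG, EREG and BTC lie in 1 stretch of chromosome 4 next to the CXC chemokine genes, and they were the 3 genes called higher among the 18 genes of the table within 1 Mb of AREG. CXCL6 and PF4V1 were called lower, and 13 were not called, 4 of them at or under the floor in both lines. CXCL6, a chemokine that attracts neutrophils, was at 80.1, 319 and 237 RPM in HuCCT1/CD90- and at 8.36, 4.54 and 4.23 RPM in HuCCT1/CD90+, with a log2 fold change of -4.83 and a limma adjusted p of 0.0115. Its call was lost without HuCCT1/CD90- replicate 3 or HuCCT1/CD90+ replicates 2 or 3 (0.0501, 0.0502 and 0.0535) and with the replicate block (0.0772). PF4V1, which is nearly identical to PF4 so that their reads are uncertain, had means of 2.18 and 0.075 RPM (limma adjusted p = 0.023, with the block 0.0564, and over 0.05 without any library other than HuCCT1/CD90- replicate 1). IL8, the chemokine CXCL8, had means of 89.5 and 20.7 RPM and CXCL1 of 11.2 and 0.851 RPM, with limma adjusted p-values of 0.0659 and 0.119, and both passed in DESeq2 on the reads. PPBP, another CXC chemokine, went the other way, with means of 1.44 and 5.28 RPM and no overlap (limma adjusted p = 0.0747), and it also passed in DESeq2. CXCL5, 187 and 264 RPM, overlapped between the lines. The genes called within 1 Mb of AREG thus differed in both directions.

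**Figure D4:**
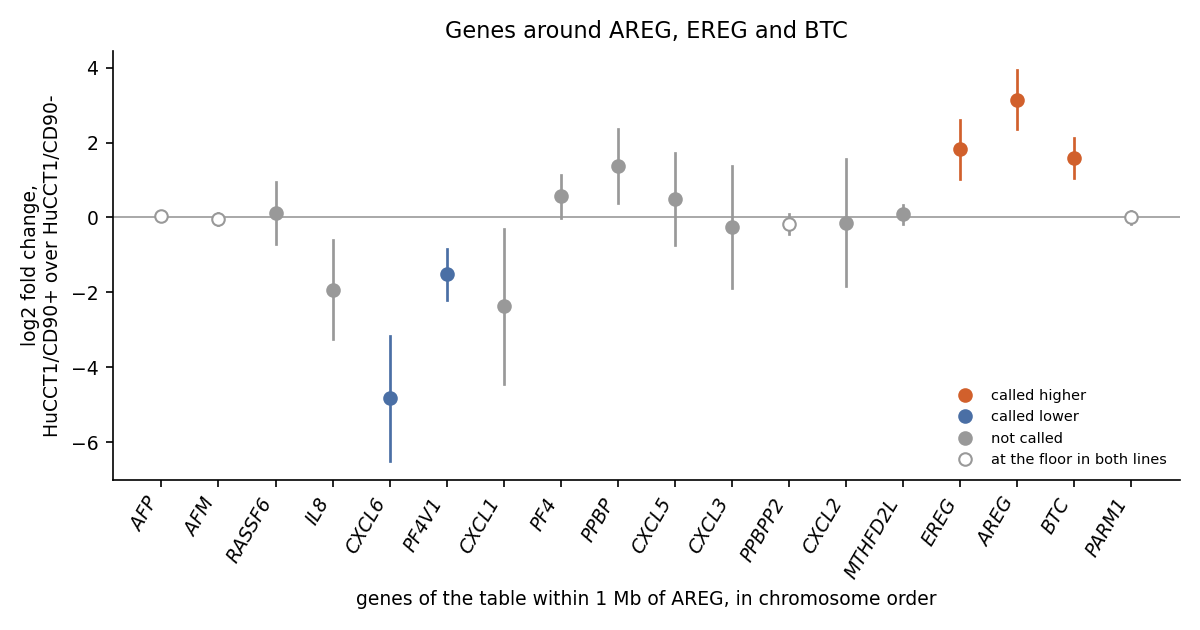
Log2 fold change (y axis, HuCCT1/CD90+ over HuCCT1/CD90-, with 95% limma intervals) of the 18 genes of the table within 1 Mb of AREG, in their order on the chromosome. EREG, AREG and BTC (orange) lie at 1.82, 3.15 and 1.58, CXCL6 and PF4V1 (blue) at -4.83 and -1.52, and the others (grey, open where at the floor in both lines) were not called.

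Of the 5 remaining ligands of the family, 4 were in the table and none of these was called, while EPGN was not found under its symbol. EGF itself had few reads, with 0, 0 and 0.776 RPM in HuCCT1/CD90- and 1.29, 0.815 and 1.41 RPM in HuCCT1/CD90+. Every HuCCT1/CD90+ library was above every HuCCT1/CD90- library, but the means of 0.259 and 1.17 RPM gave a limma adjusted p of 0.134, and 0.0362 without HuCCT1/CD90- replicate 3. NRG2 had 0.729 and 0.183 RPM (adjusted p = 0.247), and NRG3 and NRG4 had no read in any library, which at this depth allows up to 0.349 RPM.

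Of 8 genes that release or traffic the ligands, 2 were called higher and 1 lower (median log2 fold change 0.42), and none of these changes reached 2-fold. ADAM10, a sheddase of EGF and BTC, had 135 and 190 RPM (log2 fold change 0.49, limma adjusted p = 0.022, with the block 0.0325) and ADAM9 160 and 259 RPM (0.70, adjusted p = 0.0312, with the block 0.0566). ADAM15 had 637 and 500 RPM (-0.35, adjusted p = 0.0157, with the block 0.0508). ADAM17, the main protease for AREG, EREG, HBEGF and TGFA, was at 49.1 and 43.6 RPM and was not called (adjusted p = 0.52). RHBDF2, with the largest log2 fold change of the list (0.93, 30.8 and 58.2 RPM), and RHBDF1 (0.51, 20.6 and 29.7 RPM) were not called. Their limma adjusted p-values were 0.0682 and 0.0524, and both passed in DESeq2 on the reads (3.1e-05 and 0.0143). Over the genes whose mean reached 1 RPM the ADAM15 call was lost (limma adjusted p = 0.0703). The call was lost without CD90- replicate 1 or CD90+ replicates 1 or 3 for ADAM10, without each library but CD90- replicate 3 for ADAM9 and without each CD90- library or CD90+ replicate 3 for ADAM15. The ADAM15 call was also lost when the median of its neighbours on chromosome 1 (-0.38) was divided out (adjusted p = 0.884).

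Of 10 genes listed as attenuators of the receptors, 1 was called higher and 2 lower, with a median log2 fold change of -0.15. What each of them does to the receptors in these cells was not tested. LRIG1, a membrane protein that promotes the degradation of EGFR family receptors, fell from 39.0 ± 2.74 to 3.70 ± 0.637 RPM, 10.5 times lower in HuCCT1/CD90+ (log2 fold change -3.09, limma adjusted p = 0.00059). Its relative LRIG3 fell from 21.9 to 5.71 RPM (-1.77, adjusted p = 0.00244). CBLC, an epithelial ubiquitin ligase of the CBL family, rose from 12.1 to 70.8 RPM (2.48, adjusted p = 0.00436), while CBL, the ligase best known for EGFR, was at 70.5 and 68.3 RPM and was not called. ERRFI1, the inhibitor MIG6, was at or near the floor in both lines (0.161 and 0.264 RPM). The 3 called genes passed with each library left out and with the block.

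Of 6 partners of the receptors and ligands, 3 were called higher and 2 lower. CD44, whose variant forms present HBEGF, rose from 1.67 to 14.7 RPM (log2 fold change 2.57, limma adjusted p = 0.00176). CD9, a tetraspanin that associates with the HBEGF precursor, rose from 292 to 792 RPM (1.43, adjusted p = 0.00151), and ERBIN, an ERBB2-binding scaffold listed as ERBB2IP, from 120 to 212 RPM (0.81, adjusted p = 0.00276). PTPRJ, a phosphatase that acts on EGFR, fell from 186 to 84.2 RPM (-1.14, adjusted p = 0.00365). MUC1, a mucin that binds EGFR family receptors, was at 59.7 and 29.9 RPM (-0.98, adjusted p = 0.0267), and that call was lost without each library but CD90+ replicate 2 and when the median of its neighbours on chromosome 1 (-0.38) was divided out (adjusted p = 0.0975).

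Downstream of the receptors, of 22 adaptors and kinases of the cascade, 3 were called higher and 2 lower, with a median log2 fold change of 0.02, and 17 were not called. MAP2K1, the kinase MEK1, rose from 107 to 190 RPM (0.81, limma adjusted p = 0.00517) whichever library was left out. GAB1, a docking adaptor, had 5.78 and 18.7 RPM (1.59, adjusted p = 0.0303, with the block 0.0802), and its call was lost without CD90- replicate 3 or any CD90+ library and narrowly with its neighbours divided out (0.0507), where its log2 fold change was 1.36. BRAF, on chromosome 7, had 33.1 and 47.0 RPM (0.49, adjusted p = 0.0213), and 0.962 was its adjusted p once its neighbours were divided out. SHC1 (445 and 293 RPM) and PIK3R1 (39.4 and 22.1 RPM) had adjusted p-values of 0.0291 and 0.0284, SHC1 being lost without each library but CD90+ replicate 2 and with its neighbours divided out (0.221), and PIK3R1 without each library but CD90- replicate 2 and with the block (0.067). BRAF was also lost without any CD90- library or CD90+ replicate 3.

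Transcripts that ERK signalling induces did not move in 1 direction: of 17, 2 were called higher and 3 lower, with a median log2 fold change of 0.06. DUSP5, an ERK phosphatase, rose from 21.5 to 86.4 RPM (1.97, limma adjusted p = 0.00246) and CCND1, cyclin D1, from 438 to 948 RPM (1.12, adjusted p = 0.00671). EGR1, an immediate early transcription factor, fell from 22.4 to 9.31 RPM (-1.20, adjusted p = 0.0108, and 0.0514 without CD90+ replicate 3). EPHA2, an ephrin receptor, had 1256 and 707 RPM (-0.82, adjusted p = 0.00946, with the block 0.0637). DUSP6, another ERK phosphatase, had 197 and 136 RPM (-0.54, adjusted p = 0.0451), and its call was lost without any 1 of the 6 libraries, with the block (0.151) and narrowly with its neighbours divided out (0.0579), where its log2 fold change was -0.51. With the block the counts of this list were 3 higher and 1 lower, beside 6.72% and 6.4% of all genes. The call gained with the block was MYC, a growth-promoting transcription factor (limma adjusted p = 0.0857 without and 0.037 with the block). Most genes of these lists have a mean of at least 1 RPM, where 14.4% of genes were called higher and 15.0% lower, and the shares called among the cascade genes and the ERK transcripts were near or below these without the block.

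**Figure D5:**
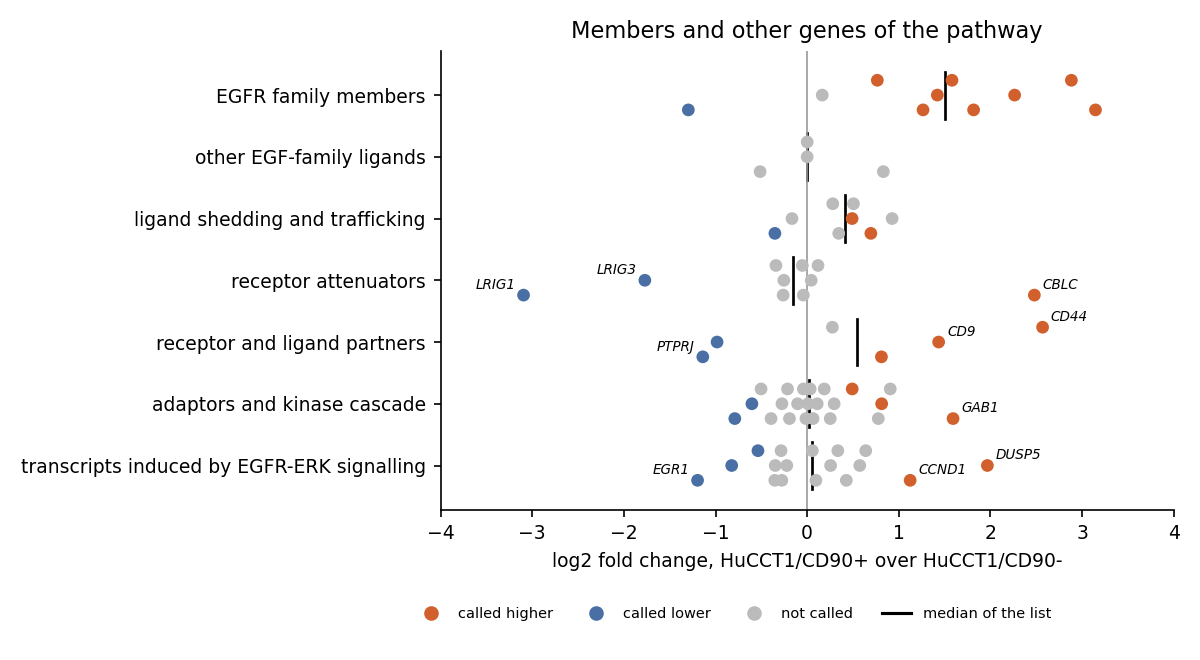
Log2 fold change (x axis, HuCCT1/CD90+ over HuCCT1/CD90-) of every gene of the members and of 6 lists of the pathway, 1 point a gene, coloured orange where called higher, blue where called lower and grey where not called, with a black bar at the median of the list. The members have a median of 1.5002, while the medians of the 6 lists lie between -0.15 and 0.54.

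Markers of other cell types differed between the lines as well. Over all genes 9.52% were called lower, or 15.0% of those whose mean reached 1 RPM, and 6.4% with the block. Of the leukocyte markers, CD14 had means of 80.8 and 4.32 RPM and was called lower, while PTPRC and CD3E were at or under the floor in both lines. The 3 endothelial markers summed to 14.5 to 23.2 and 0.643 to 1.51 RPM, with CDH5 called lower and VWF at 0 in HuCCT1/CD90-. Of 6 fibroblast markers 5 were called lower, 2 with the block and 1 to 3 with a library left out. The 6 summed to 41.8 to 64.9 and 20.3 to 24.7 RPM. Among the 5, COL1A2 and COL3A1 had means of 0.521 and 0.847 RPM in HuCCT1/CD90- and no read in HuCCT1/CD90+. COL1A1 had 13.5 and 14.2 RPM. Of 4 hepatocyte markers 2 were called lower, 1 with the block, with ALB and TTR at or under the floor. The 4 summed to 3.59 to 5.89 and 0 to 0.751 RPM. The part of these differences in the values of the receptors and ligands was not tested.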

How the data were processed

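Total RNA of 3 HuCCT1/CD90+ and 3 HuCCT1/CD90- libraries was amplified by the authors with the Ion AmpliSeq Transcriptome panel, read on the Ion GeneStudio S5 Prime and counted for each amplicon by the ampliSeqRNA plugin. The submitters' processing notes name Torrent Suite Server 5.16.1, the genome build hg19 and the Transcriptome Analysis Console. The authors deposited RPM values, that is reads scaled to the same total on genes, for 20811 genes with no filter, and 3805 genes were at 0 in all libraries. Amplicon positions were not used here. The values were whole multiples of 1 read, and whole reads were recovered for 100% of them within 0.1 read. Reads carry no molecular identifiers, so intervals and floors cover counting error only.

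Groups were taken from the sample labels. The 10 members, the gene lists, the marker lists and the tests were chosen with earlier results of these data known. Genes named are all members, THY1, every gene within 1 Mb of AREG that is described, and up to 4 called genes a direction and list with the largest log2 fold change, plus members needed to say what a list holds. RPM values were taken to log2(RPM + 1) and tested with limma 3.58.1 under R 4.3.3 (eBayes at its defaults after lmFit) over all genes with Benjamini-Hochberg adjustment, as the study's methods name limma. The study's own rule, a fold change of 1.5 and an unadjusted p of 0.05, was an alternative. Adjusted p-values are limma's unless another tool is named. The spread shared between genes was worth 0.449 prior degrees of freedom over all genes and 7.23 over those whose mean reached 1 RPM.

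Other alternatives were offsets of 0.1 and 5 RPM, filters at means of 1 and 10 RPM, quantile normalization, median centring, a trended and robust eBayes, the replicate number as a block, each library left out, the median over the 50 nearest genes whose mean reached 10 RPM divided out of the HuCCT1/CD90+ values, and edgeR 4.0.16 (quasi-likelihood test) and DESeq2 1.42.0 on the recovered reads. Deviations from the line means of same-numbered libraries correlated with r = 0.21, 0.32 and 0.18 across genes and those of other pairs with -0.29 to 0.07, so the numbers were taken to mark pairs, on no evidence but these correlations. The reported fit has no block, and the blocked fit is an alternative whose values stand beside the calls it changes. Positions are those of GENCODE 29 on GRCh38, matched by symbol for 18609 genes and by an older symbol for 1058, and the table gives none. Promoter windows are from RefSeq (GRCh38.p14). Only the main fit, without the block, was run on simulated reads, which held no pairing. The outcome is not given here and no result rests on it. The result of 1 marker is not reported here.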

Additional observations from a re-analysis of the deposited data

How the results depend on the processing

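No log2 fold change of a member changed sign under the alternatives. Of 167 values of single members under these alternatives 150 kept their side of the threshold and 17 lost the call, 6 for EGFR, 5 for EREG and 6 for NRG1. With the replicate number as a block 5 members were called higher, in place of 8, the number lower stayed at 1, and 2729 genes were called in place of 3939. The block ended the calls of EGFR, EREG and NRG1 (limma adjusted p = 0.0682, 0.0648 and 0.0788) and of no other member. With each library left out in turn 5 to 7 members were called higher, 1 was called lower, and 2197 to 2932 genes were called. These fits hold fewer libraries, and a line with fewer libraries is assumed to vary like the other. Filtering at a mean of 10 RPM removed ERBB4, BTC and NRG1, so that 0 members were called lower and 6 higher. Dividing out neighbouring genes left 7 members higher (EGFR was lost) and 3341 genes called. The other alternatives left 8 members higher and 1 lower, with 3138 to 5357 genes called, the latter in edgeR. The log2 fold changes of low genes moved with the offset and the tool, from 0.57 to 3.44 for BTC, from -1.79 to -0.64 for ERBB4 and from 0.50 to 0.91 for NRG1, while AREG kept 2.76 to 3.34 and HBEGF 2.65 to 3.01. The difference of the ERBB3 to EGFR ratio was 0.73 with an offset of 5, and with neighbours divided out, chosen after seeing the data, the differences of the ERBB2 and ERBB3 ratios were -0.51 and 1.64. Depth limits BTC most, with 2 or 3 reads a library in HuCCT1/CD90-. The cause of these shifts was not tested.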
